A study of Arabidopsis thaliana with 8 samples.

Results

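The comparison described here sets wild-type Arabidopsis thaliana seedlings given red light against wild-type seedlings kept in the dark. It used the 4 wild-type libraries of the 8 in the series, chosen by genotype and light condition, and it covers all annotated genes. Col-0 seeds on MS medium with 1% sucrose were held cold at 4 °C for 3 days, given white light for 12 h and kept in darkness for 5 days. The WT red group (n = 2) then received red light of 50 μmol per m2 per s for 1 h, and the WT dark group (n = 2) received no light. Lines named phyB and phyAB, labelled as mutants of phytochrome B and of both phytochromes A and B, got the same red light (n = 2 each) and are used only to place the wild-type levels. No source used here names the mutant alleles, all groups were on sucrose, and the labels name seedlings as the source.

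Phytochromes are receptors that red light converts to an active form, which moves into the nucleus and removes PIF transcription factors. A seedling grown in the dark is etiolated: it lengthens its hypocotyl, keeps its cotyledons folded and holds unfinished plastids. Light starts de-etiolation, in which plastids become chloroplasts, stem growth slows and the seedling turns from stored reserves to photosynthesis. The antenna, chlorophyll, flavonoid and auxin genes of this response are set aside below, and the rest of the transcriptome is described.

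Read totals lay between 15926547 and 22116924 per library over the 8 libraries, with 19760675 and 16326741 in WT red and 20045824 and 18714337 in WT dark. Levels are given as CPM (read counts scaled to library size, with factors from the trimmed mean of M-values, TMM), which allows comparison of a gene between libraries but not of different genes. Nothing in the labels says that replicates were separate cultures, so p-values measure only the spread between these libraries. That spread was small, with a biological coefficient of variation of 1.59%. A gene was called when its Benjamini-Hochberg adjusted p from edgeR's quasi-likelihood test over 20716 tested genes was below 0.05. Fewer cells of a type and less RNA per cell cannot be told apart in whole seedlings. Of the tested cell type markers 2 of 4 for leaf polarity were higher and 1 lower, 2 of 2 for the shoot apex higher, 3 of 4 for the stomatal lineage higher, and 1 of 8 for the root higher and 2 lower. These small counts stand beside 24.1% higher and 22.7% lower over all tested genes. Summed leaf polarity markers were 127 and 127 CPM in WT red and 106 and 103 CPM in WT dark, and shoot apex markers 125 and 126 CPM in WT red and 93.1 and 95.7 CPM in WT dark. Root markers were 275 and 269 CPM in WT red and 289.9 and 285 CPM in WT dark, and seed markers 11.3 and 11.03 CPM in WT red and 6.86 and 7.301 CPM in WT dark. Of 7 tested seed markers 1 was higher and 6 were not called. The higher one, EM6, had 8.65 and 8.34 CPM in WT red, against 3.81 and 3.97 CPM in WT dark. The part of these markers in the results was not tested.

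One hour of red light was followed by a change in 9689 of 20716 tested genes (46.8%), of which 4993 were higher in WT red (24.1% of tested genes) and 4696 lower (22.7%). With an assumed coefficient of variation of 0.1 between biological replicates in place of the measured one, 3479 genes were called, 2377 higher and 1102 lower. Large changes were mostly upward. In WT red 1463 genes (7.06%) were higher by at least 2-fold and 554 (2.67%) lower by at least 2-fold, and past 16-fold the counts were 82 higher and 9 lower. Small changes leaned the other way, since below 1.25-fold 1301 genes were called higher and 2132 lower. Their balance depends on the scaling: 51.5% of all calls were higher here and 42.0% with upper-quartile scaling. Counted in CPM over all genes, called or not, gains summed to 131412 CPM and losses to -112392 CPM. The scaling factors also set the totals, 1023280 CPM in WT red and 1004260 CPM in WT dark. The surplus of gains is therefore no measure of a net rise. The set-aside antenna, chlorophyll, flavonoid and auxin genes made up 14467 CPM of the gains. The 100 genes with the largest gains held 38.5% of the gained CPM, and the 100 largest losers held 34.6% of the lost CPM. Since 70.9% of all tested genes had WT red libraries that did not overlap the WT dark libraries, separation of the 4 libraries alone distinguishes no gene here.

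**Figure D1:**
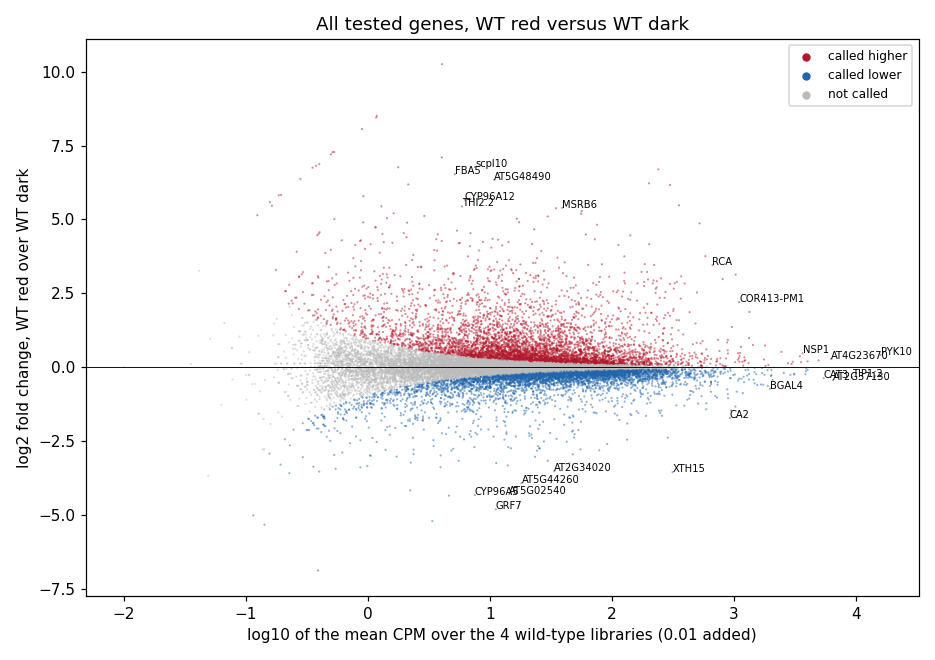
Each point is 1 of the 20716 tested genes, with the log10 mean CPM of the 4 wild-type libraries (0.01 added) on the x axis and the log2 fold change of WT red over WT dark on the y axis. Points past 4 on the y axis outnumber points below -4, and the genes with the highest CPM lie within 1 log2 unit of 0.

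The largest rises in relative terms were in genes almost silent in darkness. Among called genes with at least 10 CPM in one wild-type group, scpl10, encoding a serine carboxypeptidase-like protein, had 13.1 and 16.9 CPM in WT red, against 0.2003 and 0.0537 CPM in WT dark, from 522 reads in WT red and 5 in WT dark. FBA5, an aldolase gene, had 10.1 and 10.3 CPM in WT red, against 0.0501 and 0.161 CPM in WT dark, from 360 and 4 reads in WT red and WT dark. AT5G48490, a lipid-transfer protein gene, had 21.4 and 21.6 CPM in WT red, against 0.2504 and 0.268 CPM in WT dark (log2 change 6.34 ± 0.22 (SE), adjusted p = 1.71e-57). Its neighbour DIR1, named for its part in systemic resistance, had 115 and 119 CPM in WT red, against 5.36 and 5.05 CPM in WT dark (log2 change 4.49 ± 0.07 (SE), adjusted p = 5.18e-95). The 2 genes lie next to each other on the minus strand of chromosome 5 and encode related proteins, and no source used here says how reads matching both were counted. Also in the top 12 were THI2.2, a thionin, with 11.1 and 11.97 CPM in WT red, against 0.0501 and 0.483 CPM in WT dark, and CYP96A12, a cytochrome P450, with 11.2 and 13.3 CPM in WT red, against 0.1002 and 0.376 CPM in WT dark. MSRB6 and CDSP32 both encode redox proteins, a methionine sulfoxide reductase and a plastid thioredoxin-like protein. MSRB6 had 77.4 and 75.5 CPM in WT red, against 1.903 and 1.72 CPM in WT dark, and CDSP32 had 59.5 and 56.3 CPM in WT red, against 1.45 and 1.93 CPM in WT dark. Of these genes every WT red library lay above every WT dark library. They were chosen by their rise in these same libraries, so that separation adds no support.

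Falls of that size were fewer. GRF7, one of the growth-regulating factors, had 0.932 and 0.564 CPM in WT red, against 23.1 and 20.1 CPM in WT dark (log2 change -4.81 ± 0.19 (SE), adjusted p = 2.49e-51). CYP96A5 had 0.725 and 0.689 CPM in WT red, against 14.8 and 13.9 CPM in WT dark (log2 change -4.33 ± 0.21 (SE), adjusted p = 2.2e-40), so that this gene and CYP96A12 of the same P450 subfamily moved in opposite directions. XTH15, which encodes a xyloglucan-modifying enzyme of the cell wall, had the most reads of the top 12 falls, with 49.04 and 49.8 CPM in WT red, against 578 and 581 CPM in WT dark (log2 change -3.55 ± 0.03 (SE), adjusted p = 4.75e-125). SNRK2.5, a protein kinase of a family known for osmotic stress signalling, had 7.92 and 9.15 CPM in WT red, against 80.1 and 82.3 CPM in WT dark. AT4G11610, annotated as a C2 domain protein, had 8.96 and 8.52 CPM in WT red, against 88.5 and 93.6 CPM in WT dark, and AT2G34020, annotated as a calcium-binding EF-hand protein, had 5.49 and 5.26 CPM in WT red, against 62.7 and 61.2 CPM in WT dark. BETA-TIP, a tonoplast aquaporin gene known from seeds, had 2.59 and 1.63 CPM in WT red, against 22.1 and 18.8 CPM in WT dark. In all 7 the 2 libraries of WT red lay below both of WT dark. The genes were chosen by their fall in these same libraries, so that separation adds no support.

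Promoter sequence is shown for the 6 of these 24 genes whose upstream window held a motif known from light or clock regulation, to show the letters counted in the next paragraph. The windows are the 150 bases before the annotated gene start in RefSeq's TAIR10.1 assembly, 5′ to 3′ on the gene's strand, and capitals mark the motifs. In scpl10 (chr2:9792016-9792165, plus strand) and AT2G34620 (chr2:14576933-14577082, plus strand) that is CACGTG, the G-box bound by HY5 and PIF proteins. In FBA5 (chr4:13390604-13390753, plus strand) capitals mark an I-box (GATAAG, here on the other strand), an evening element (AAAATATCT, on the other strand) and a PBE-box (CATGTG), a PIF-binding sequence. AT5G44260 (chr5:17831337-17831486, minus strand) has an evening element, and BETA-TIP (chr1:6129875-6130024, plus strand) and AT3G18530 (chr3:6375724-6375873, minus strand) have a PBE-box, in BETA-TIP on the other strand.
scpl10: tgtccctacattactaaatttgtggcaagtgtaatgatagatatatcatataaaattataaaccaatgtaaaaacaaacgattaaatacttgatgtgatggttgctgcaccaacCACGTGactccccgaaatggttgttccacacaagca
AT2G34620: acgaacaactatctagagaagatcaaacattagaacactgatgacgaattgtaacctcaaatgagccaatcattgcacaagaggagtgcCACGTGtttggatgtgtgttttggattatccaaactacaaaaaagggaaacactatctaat
FBA5: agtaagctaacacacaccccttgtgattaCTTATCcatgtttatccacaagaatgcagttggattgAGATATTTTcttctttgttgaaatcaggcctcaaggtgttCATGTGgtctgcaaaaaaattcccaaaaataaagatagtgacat
AT5G44260: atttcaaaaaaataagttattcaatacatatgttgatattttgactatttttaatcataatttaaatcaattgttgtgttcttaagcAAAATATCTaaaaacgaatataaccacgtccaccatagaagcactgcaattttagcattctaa
BETA-TIP: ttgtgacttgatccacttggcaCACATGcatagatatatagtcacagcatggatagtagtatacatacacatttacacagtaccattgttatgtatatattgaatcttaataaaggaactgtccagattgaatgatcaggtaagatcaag
AT3G18530: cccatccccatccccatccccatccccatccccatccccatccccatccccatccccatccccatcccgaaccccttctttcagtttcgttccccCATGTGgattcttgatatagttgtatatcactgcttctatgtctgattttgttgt
AT5G44260, a zinc finger gene, had 2.49 and 1.94 CPM in WT red, against 34.7 and 33.5 CPM in WT dark, and AT3G18530, annotated as an ARM repeat protein, had 4.87 and 5.39 CPM in WT red, against 43.3 and 40.4 CPM in WT dark. AT2G34620, of the mitochondrial transcription termination factor family, had 14.2 and 12.3 CPM in WT red, against 0.901 and 0.215 CPM in WT dark (log2 change 4.53 ± 0.23 (SE), adjusted p = 4e-40).

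Over whole gene sets the motif shares are given as descriptions without a test. Windows were 250 bases before the start and both strands were searched. G-box and PBE-box letters cannot overlap, and an I-box can share 2 letters with an evening element. The G-box stood in 12.1% of 513 promoters of genes called at least 4-fold higher in WT red, in 13.3% of 120 called at least 4-fold lower, and in 7.38% of all 20499 promoters of tested genes. The PBE-box stood in 12.3% of the higher, 20% of the lower and 11.2% of all promoters. The I-box stood in 15.98% of the higher, 10% of the lower and 12.3% of all promoters. Shares of the telo-box (AAACCCTA) were 1.36% in the higher, 1.67% in the lower and 3.49% in all promoters, and those of the site II element (TGGGCC) were 13.5%, 7.5% and 16.1% in the same order. The evening element (2.92%, 2.5% and 2.47%) and the heat shock element (GAANNTTC, 9.16%, 5.83% and 9.33%) were close to the share of all promoters among the higher genes. With a fold limit of 2 there were 1459 promoters of higher and 548 of lower genes. The G-box then stood in 10.7% of the higher and 8.39% of the lower, the PBE-box in 11.7% of the higher and 19.9% of the lower, and the I-box in 14.3% of the higher and 13.3% of the lower, so that the lower genes no longer stood below all promoters for the I-box.

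Of the regulators, B-box transcription factors, zinc finger proteins that act beside HY5 and the COP1 ubiquitin ligase, moved in both directions. 13 of 23 tested members rose, 10 of them by at least 2-fold, against 24.1% of all tested genes called higher, and 6 fell, against 22.7% called lower. BBX25 had 31.7 and 32.8 CPM in WT red, against 1.302 and 0.644 CPM in WT dark (log2 change 5.03 ± 0.16 (SE), adjusted p = 4.48e-62), and BBX30, a small B-box protein, had 5.39 and 5.89 CPM in WT red, against 0.2504 and 0.0537 CPM in WT dark (log2 change 5.12 ± 0.38 (SE), adjusted p = 3.18e-25). BBX23 moved as far the other way, with 0.155 and 0.188 CPM in WT red, against 5.61 and 7.52 CPM in WT dark (log2 change -5.21 ± 0.36 (SE), adjusted p = 2.62e-27). BBX28 fell less, with 19.2 and 18.24 CPM in WT red, against 34.2 and 32.9 CPM in WT dark. The list summed to 1486 and 1470.4 CPM in WT red and 1056 and 1057 CPM in WT dark. It does not hold every B-box gene. BBX17, outside the list and so not in its counts or sums, had 6.63 and 5.202 CPM in WT red, against 55.3 and 52.1 CPM in WT dark (log2 change -3.17).

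Genes of other light receptors also changed within the hour. Of 18 tested genes for blue and UV receptors, phototropism and photolyases, 10 rose and 7 fell, with 4 falls when WT red replicate 2 was left out. The shares over all tested genes were 24.1% higher and 22.7% lower. RPT2, an adaptor of phototropin signalling that shapes phototropism, had 451 and 448 CPM in WT red, against 55.03 and 56.6 CPM in WT dark (log2 change 3.01 ± 0.03 (SE), adjusted p = 2.96e-116). CRY3, an organelle cryptochrome with DNA repair activity, had 20.2 and 21.7 CPM in WT red, against 2.65 and 2.47 CPM in WT dark (log2 change 3.02 ± 0.14 (SE), adjusted p = 3.08e-44). The receptor gene PHOT1 went down, with 219 and 211 CPM in WT red, against 335 and 350.5 CPM in WT dark (log2 change -0.67 ± 0.03 (SE), adjusted p = 6.6e-49). PHYA, whose protein is abundant in etiolated seedlings, had 463 and 470.5 CPM in WT red, against 834 and 828 CPM in WT dark (log2 change -0.83 ± 0.01 (SE), adjusted p = 6.15e-95), and PHYB, the main red light receptor gene of green tissue, had 95.96 and 95.2 CPM in WT red, against 80.7 and 81.3 CPM in WT dark (log2 change 0.24 ± 0.04 (SE), adjusted p = 7.32e-07). The call of PHYB ended with an assumed coefficient of variation of 0.1.

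Of the hormone lists that were not set aside, cytokinin genes gave 9 rises and 4 falls among 24 tested, or 54.2% called, near the 46.8% over all genes. The 2 largest rises were in genes of type-A response regulators, which feed back on cytokinin signalling. ARR15 had 2.64 and 3.38 CPM in WT red, against 0.2003 and 0.107 CPM in WT dark and ARR16 3.78 and 4.76 CPM in WT red, against 0.351 and 0.322 CPM in WT dark, while ARR3 of the same type had 3.47 and 2.63 CPM in WT red, against 4.61 and 6.12 CPM in WT dark. CKX5, a cytokinin-degrading oxidase, had 16.4 and 16.5 CPM in WT red, against 27.3 and 30.4 CPM in WT dark. Jasmonate genes were split, with 7 up and 8 down of 22 (68.2% called). Without WT dark replicate 1 or 2 the rises came to 4 or 3, and without WT red replicate 1 the falls to 5. VSP2, a jasmonate-induced storage protein, had 42.3 and 42.1 CPM in WT red, against 16.6 and 13.96 CPM in WT dark (log2 change 1.46 ± 0.08 (SE), adjusted p = 2.25e-35), and AOC4, an enzyme of jasmonate synthesis, had 26.3 and 22.8 CPM in WT red, against 42.5 and 41.2 CPM in WT dark.

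Genes of abscisic acid synthesis, turnover and response rose more often than they fell, 14 against 4 of 24 tested, with 9 rises when WT dark replicate 2 was left out. Over all tested genes 24.1% were higher and 22.7% lower. RD29A, a dehydration- and cold-induced gene, had 404 and 403 CPM in WT red, against 61.6 and 62.4 CPM in WT dark (log2 change 2.701 ± 0.03 (SE), adjusted p = 1.15e-110). KIN1, of a cold-induced family, had 10.1 and 12.5 CPM in WT red, against 1.703 and 2.25 CPM in WT dark. Against these, PYL5, an abscisic acid receptor gene, had 26.7 and 27.1 CPM in WT red, against 45.8 and 43.5 CPM in WT dark, and NCED5, a gene of abscisic acid synthesis, had 0.311 and 0.564 CPM in WT red, against 1.502 and 1.396 CPM in WT dark. Both libraries of WT red were above both of WT dark for RD29A and KIN1, and 70.9% of all tested genes had libraries that did not overlap.

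The Calvin cycle fixes carbon dioxide in the chloroplast. Of its 20 tested genes 18 rose, 15 of them by at least 2-fold, and 1 fell. Over all tested genes 24.1% were higher, 7.06% higher by at least 2-fold, and 22.7% lower. The list median was 1.77 on the log2 scale, against 0.0022 over all tested genes. Calvin cycle genes summed to 7590.4 and 7546 CPM in WT red and 2289.9 and 2326 CPM in WT dark. FBA1, the plastid aldolase, had 138 and 139 CPM in WT red, against 7.66 and 6.01 CPM in WT dark (log2 change 4.33 ± 0.07 (SE), adjusted p = 9.38e-98). CP12-2, a small protein that ties up cycle enzymes in the dark, had 43.6 and 43.4 CPM in WT red, against 3.81 and 3.704 CPM in WT dark, whereas CP12-3 had 13.3 and 12.3 CPM in WT red, against 17.8 and 18.4 CPM in WT dark. RBCS1A, a small subunit of Rubisco, had 1382 and 1389 CPM in WT red, against 538 and 542 CPM in WT dark, and the near-identical copies of this family make its counts uncertain. Photorespiration, which recovers the carbon of Rubisco's side reaction across several organelles, followed with 15 of 16 higher and 1 lower (median log2 1.503). GLDP1, a subunit of glycine decarboxylase, had 599.8 and 602 CPM in WT red, against 82.5 and 80.3 CPM in WT dark (log2 change 2.88 ± 0.03 (SE), adjusted p = 6.49e-124), and PGLP1, the first enzyme of the path, had 29.6 and 31.9 CPM in WT red, against 3.26 and 4.51 CPM in WT dark. GLYK, which encodes its last enzyme, glycerate kinase, had 209.5 and 211 CPM in WT red, against 302 and 305 CPM in WT dark (log2 change -0.53 ± 0.03 (SE), adjusted p = 2.21e-38). The falls of CP12-3 and GLYK were no longer called when a coefficient of variation of 0.1 was assumed.

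Of the 34 gene lists, electron transport and thylakoid regulation genes showed the highest median, 1.93 on the log2 scale, with 17 of 20 higher and 0 lower. Counts in this paragraph are read beside 24.1% higher and 22.7% lower over all tested genes. DRT112, the major plastocyanin, had 418 and 406 CPM in WT red, against 56.9 and 52.9 CPM in WT dark (log2 change 2.91 ± 0.03 (SE), adjusted p = 7.32e-113), and NPQ4, the PsbS protein that switches on heat dissipation, had 324 and 327 CPM in WT red, against 45.8 and 42.1 CPM in WT dark (log2 change 2.89 ± 0.04 (SE), adjusted p = 3.13e-108). The gene expression machinery of the plastid moved less but as uniformly. Nuclear genes for plastid ribosomal proteins were higher in 30 of 31 cases and lower in 1, with a median log2 change of 0.81, and proteins of the plastid RNA polymerase complex were higher in 13 of 14. PSRP3/1, a plastid-specific ribosomal protein, had 44.02 and 40.3 CPM in WT red, against 11.1 and 9.34 CPM in WT dark. PTAC7, a protein bound to the plastid polymerase, had 21.8 and 22.2 CPM in WT red, against 8.76 and 7.09 CPM in WT dark. The member that fell, AT5G24490, annotated as a 30S ribosomal protein, had 40.7 and 39.5 CPM in WT red, against 56.1 and 58.7 CPM in WT dark, a call that ended when a coefficient of variation of 0.1 was assumed.

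Plastid isoprenoid and carotenoid genes rose in 25 of 26 cases. PSY, phytoene synthase, which commits carbon to carotenoids, had 129 and 132 CPM in WT red, against 23.5 and 26.4 CPM in WT dark (log2 change 2.39 ± 0.05 (SE), adjusted p = 2.98e-81), and LUT5, a carotene hydroxylase, had 21.4 and 22.6 CPM in WT red, against 3.51 and 3.92 CPM in WT dark. The one that fell was PDS1, which encodes 4-hydroxyphenylpyruvate dioxygenase and also serves tyrosine breakdown, with 155 and 163 CPM in WT red, against 284 and 287 CPM in WT dark (log2 change -0.84 ± 0.03 (SE), adjusted p = 3.24e-55). Import and lipid genes were more mixed, set beside 24.1% higher and 22.7% lower over all tested genes. Chloroplast import gave 9 higher and 3 lower of 18, with TIC62 at 39.05 and 40.7 CPM in WT red, against 6.61 and 6.76 CPM in WT dark and the receptor TOC159 at 255 and 248 CPM in WT red, against 318 and 318 CPM in WT dark. Plastid fatty acid and galactolipid synthesis gave 14 higher and 4 lower of 23, with 2 lower when WT red replicate 2 was left out. FAD8, a plastid desaturase, had 29.9 and 29.8 CPM in WT red, against 3.05 and 3.06 CPM in WT dark, and ACP4, an acyl carrier protein of leaves, had 137 and 139 CPM in WT red, against 19.9 and 17.39 CPM in WT dark. FATB, the thioesterase that ends chain growth early, had 186 and 189 CPM in WT red, against 239 and 244 CPM in WT dark. The falls of TOC159 and FATB did not remain called with an assumed coefficient of variation of 0.1.

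Antioxidant and plastid redox genes rose in 25 of 34 cases and fell in 5, against 24.1% higher and 22.7% lower over all tested genes. TRXF1, a thioredoxin that activates Calvin cycle enzymes in light, had 32.3 and 33.03 CPM in WT red, against 3.205 and 2.63 CPM in WT dark (log2 change 3.48 ± 0.12 (SE), adjusted p = 2.32e-56), and PRXQ, a plastid peroxiredoxin, had 48.2 and 46.5 CPM in WT red, against 6.41 and 7.25 CPM in WT dark. The summed level of the list was nonetheless lower, 8397 and 8389 CPM in WT red and 9119 and 9029.8 CPM in WT dark. CAT3, a catalase gene, had 4749.7 and 4747 CPM in WT red, against 6165 and 6121 CPM in WT dark, a fall larger than that difference, whose call ended with an assumed coefficient of variation of 0.1. Among metal genes, 8 rose and 9 fell of 22. FER3, a plastid ferritin, had 42.3 and 41.9 CPM in WT red, against 11.2 and 12.2 CPM in WT dark, and FRO7, the chloroplast ferric reductase, had 4.14 and 3.26 CPM in WT red, against 1.05 and 0.268 CPM in WT dark. NAS2, a nicotianamine synthase, had 6.78 and 6.58 CPM in WT red, against 13.4 and 13.7 CPM in WT dark.

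**Figure D2:**
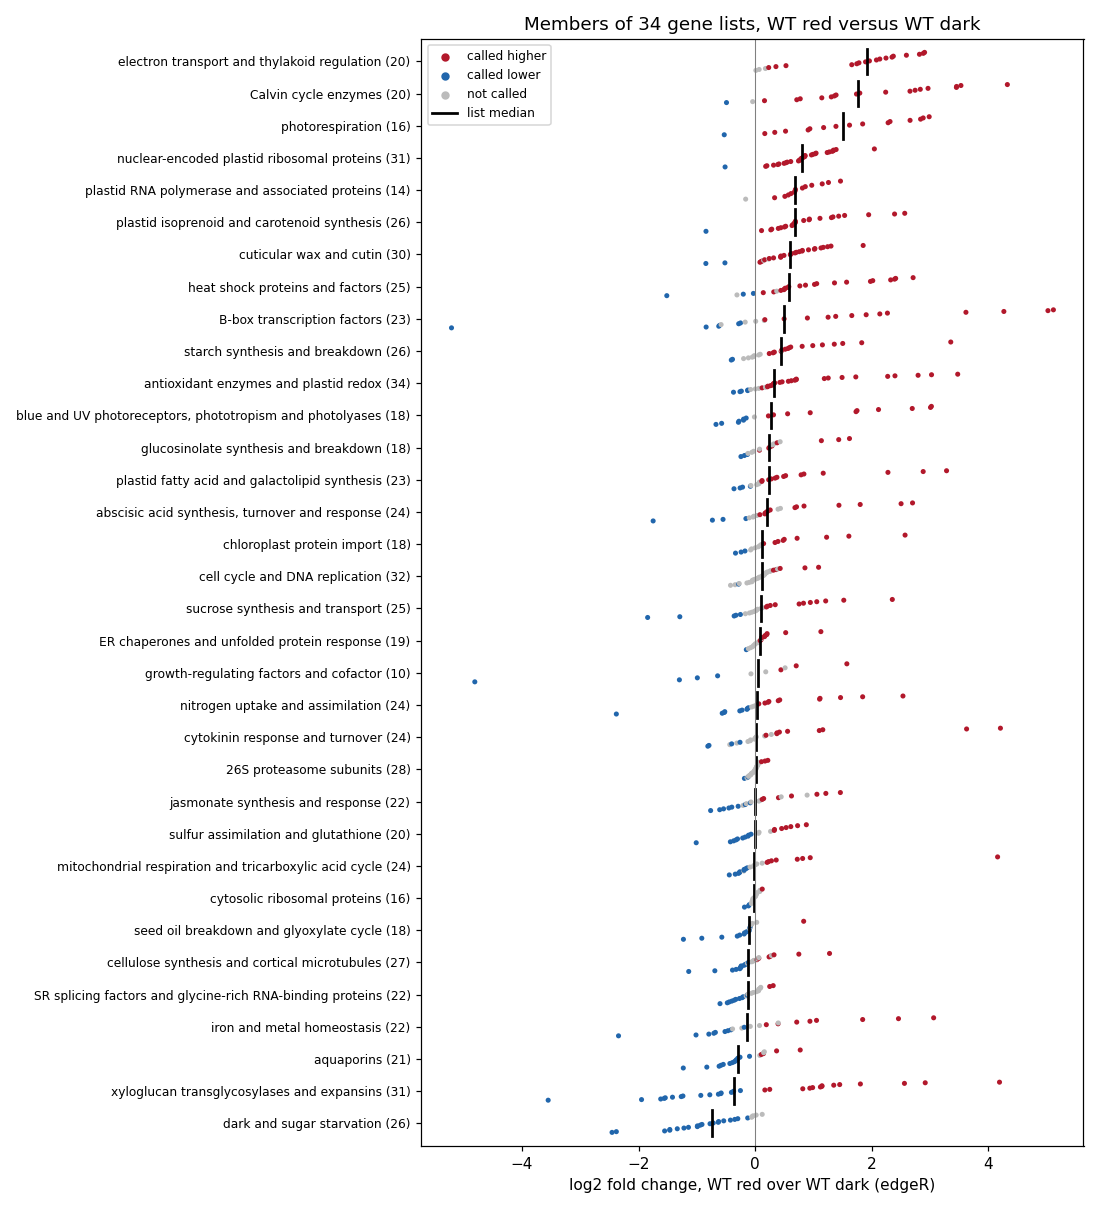
Each row is 1 of the 34 gene lists with its number of tested members, each point a member's log2 fold change of WT red over WT dark, and the black bar the list median. Electron transport, Calvin cycle and photorespiration lie at the top with medians of 1.93, 1.77 and 1.503, and dark and sugar starvation genes lie at the bottom with -0.75.

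Genes of dark and sugar starvation, which free amino acids and sugars when light is absent, showed the reverse picture. Of 26 tested, 0 rose (1 without WT red replicate 2) and 21 fell, 8 of them by at least 2-fold. The shares over all tested genes were 24.1% higher and 22.7% lower. The list summed to 5317 and 5282 CPM in WT red and 9334 and 9283 CPM in WT dark. BCAT-2, which breaks down branched-chain amino acids, had 41.7 and 40.5 CPM in WT red, against 229 and 223 CPM in WT dark (log2 change -2.46 ± 0.04 (SE), adjusted p = 3.48e-92). DIN10, an enzyme of raffinose metabolism induced in the dark, had 507 and 504 CPM in WT red, against 1389.5 and 1401 CPM in WT dark. AT3G15450, annotated as an aluminium-induced protein, had 579.9 and 587 CPM in WT red, against 1475 and 1468 CPM in WT dark. ASN1, the asparagine synthetase of darkness, had 90.2 and 94.9 CPM in WT red, against 485 and 478 CPM in WT dark (log2 change -2.38 ± 0.03 (SE), adjusted p = 3.32e-108), and its relative ASN2 moved the other way, with 44.7 and 44.9 CPM in WT red, against 7.96 and 7.46 CPM in WT dark (log2 change 2.54 ± 0.09 (SE), adjusted p = 6.12e-57). In both, the pairs of libraries stood clear of each other, as they did in 70.9% of all tested genes.

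Nitrogen uptake and assimilation genes, a list that includes ASN1 and ASN2, were divided. Of 24 tested 11 were higher and 9 lower, against 24.1% higher and 22.7% lower over all tested genes. GLU1, the ferredoxin-dependent glutamate synthase of photorespiration, had 327 and 332 CPM in WT red, against 94.6 and 88.6 CPM in WT dark (log2 change 1.84 ± 0.03 (SE), adjusted p = 3.69e-92), while GLN1;2, a cytosolic glutamine synthetase, had 298 and 294 CPM in WT red, against 437 and 439 CPM in WT dark. Sulfur genes gave 7 higher and 10 lower of 20. Of these APR1, the reductase that controls sulfate assimilation, had 35.99 and 36.3 CPM in WT red, against 21.3 and 22.3 CPM in WT dark.

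Seed oil breakdown and the glyoxylate cycle feed a seedling before it photosynthesises. 12 of 18 genes of this list fell and 1 rose, against 22.7% lower and 24.1% higher over all tested genes. ICL, isocitrate lyase of the glyoxylate cycle, had 116 and 116 CPM in WT red, against 277 and 269 CPM in WT dark (log2 change -1.23 ± 0.03 (SE), adjusted p = 3.05e-72), and PCK1, which turns the product towards sugar, had 609 and 627 CPM in WT red, against 1164 and 1166 CPM in WT dark (log2 change -0.92 ± 0.0097 (SE), adjusted p = 1.44e-118). The riser was PMDH2, a peroxisomal malate dehydrogenase that also serves photorespiration, with 105 and 107 CPM in WT red, against 58.8 and 60.4 CPM in WT dark. In carbohydrate metabolism 16 starch genes rose and 2 fell of 26, with 1 fall when WT dark replicate 1 or WT red replicate 1 was left out. BAM3, a starch-degrading amylase, had 12.8 and 15.6 CPM in WT red, against 1.202 and 1.56 CPM in WT dark, and APE2, the triose phosphate translocator, had 263 and 268 CPM in WT red, against 75.3 and 74.1 CPM in WT dark (log2 change 1.83 ± 0.03 (SE), adjusted p = 1.09e-88). Sucrose genes gave 11 higher and 5 lower of 25. SPS2F, a sucrose phosphate synthase, had 132 and 130.1 CPM in WT red, against 48.2 and 43.1 CPM in WT dark, against SUS4, a sucrose synthase, with 10.9 and 13.04 CPM in WT red, against 43.02 and 42.3 CPM in WT dark, and STP1, a sugar uptake carrier, with 194 and 197 CPM in WT red, against 479 and 479 CPM in WT dark. CA2, a carbonic anhydrase, lost more reads than most, with 430.4 and 435 CPM in WT red, against 1412 and 1433 CPM in WT dark (log2 change -1.72 ± 0.01 (SE), adjusted p = 3.74e-98).

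Mitochondrial respiration and citric acid cycle genes moved both ways, 8 up and 9 down of 24. That is 70.8% called, against 46.8% over all genes, with a median log2 change of -0.025. NDA1, an alternative NAD(P)H dehydrogenase, had 1.66 and 2.32 CPM in WT red, against 0.2003 and 0 CPM in WT dark, from 69 reads in WT red and 4 in WT dark, and AOX1A, the alternative oxidase, had 64.01 and 65.99 CPM in WT red, against 32.1 and 35.4 CPM in WT dark. Housekeeping lists stayed near the middle. Of 28 proteasome subunits 3 were higher and 2 lower, and of 16 cytosolic ribosomal proteins 1 was higher and 3 lower, none by 2-fold. Both shares lie far under the 46.8% called over all genes. With upper-quartile scaling the lower calls became 7 for the proteasome and 8 for the ribosomal proteins. Without WT dark replicate 1 the proteasome had 1 higher and 6 lower, and without WT red replicate 1 it had 1 lower. The single higher ribosomal gene was lost without WT dark replicate 1, WT dark replicate 2 or WT red replicate 1.

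**Figure D3:**
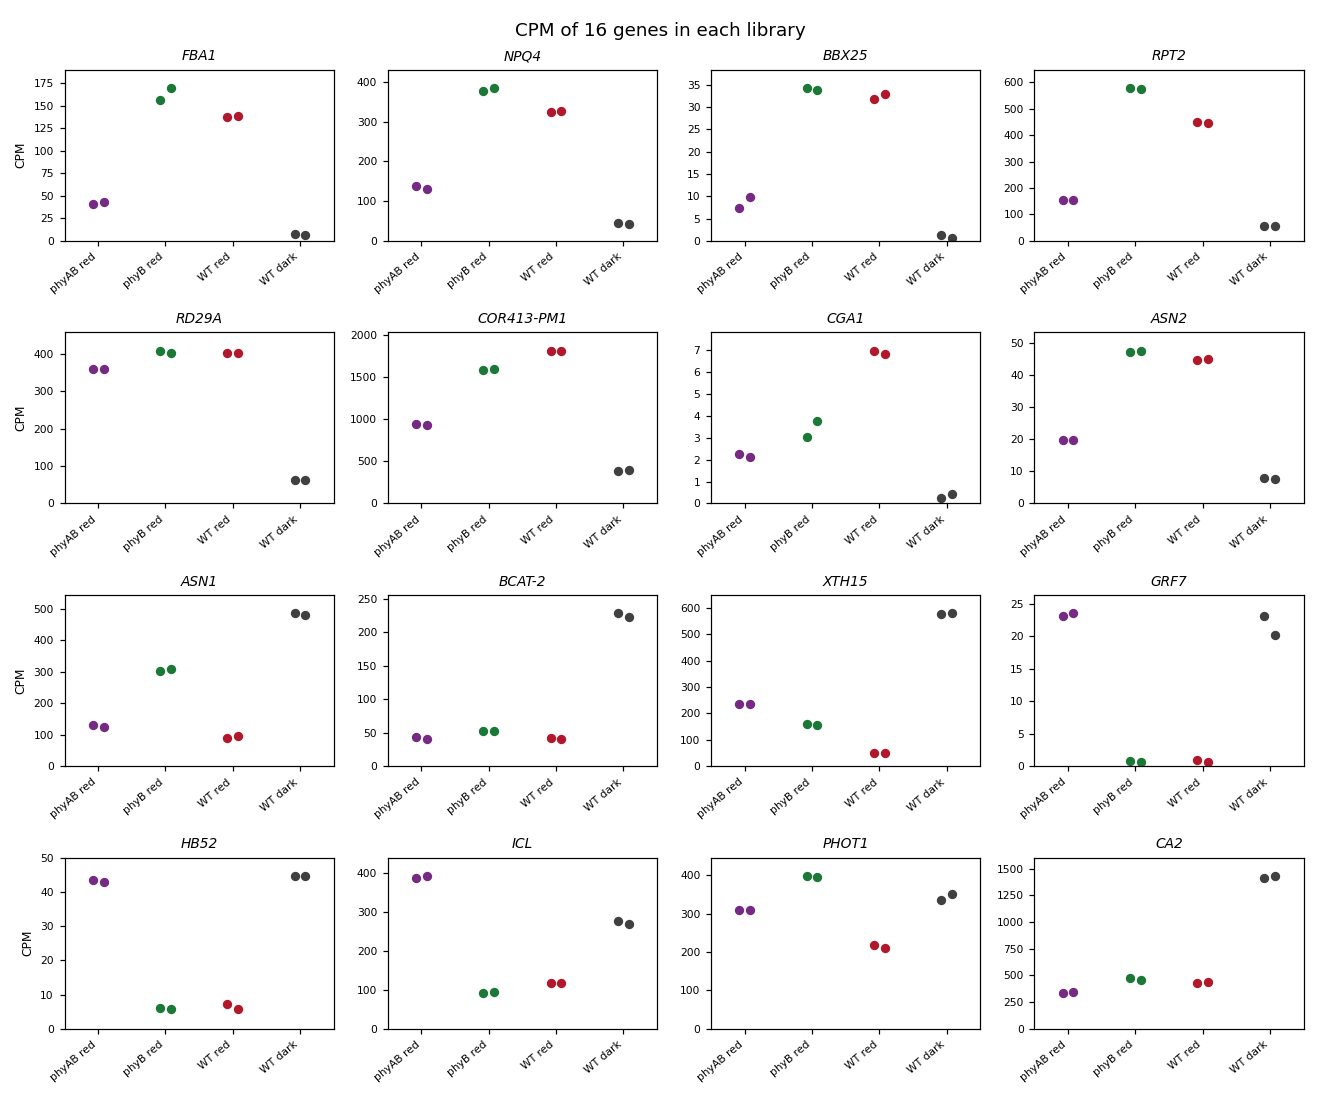
CPM of 16 named genes in each library (y axis from 0, 2 points per group) for phyAB red, phyB red, WT red and WT dark. BBX25, RPT2 and FBA1 stand high in WT red and near 0 or low in WT dark, whereas ASN1, BCAT-2, XTH15 and CA2 are highest in WT dark.

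Wall and growth genes were sorted member by member. Xyloglucan transglycosylases and expansins loosen or remodel the wall. All 31 on the list were called, 14 higher and 17 lower, against 46.8% called over all tested genes. The list was chosen with earlier results of these data known and is not the whole of these families. XTH6 had 10.7 and 10.4 CPM in WT red, against 0.651 and 0.483 CPM in WT dark (log2 change 4.19 ± 0.23 (SE), adjusted p = 2.34e-35) and XTH32 35.5 and 36.7 CPM in WT red, against 5.11 and 4.402 CPM in WT dark, against XTH15 above and EXPA9 with 17.2 and 16.1 CPM in WT red, against 63.9 and 65.4 CPM in WT dark (log2 change -1.95 ± 0.07 (SE), adjusted p = 5.77e-57). Cellulose synthesis and microtubule genes gave 7 higher and 13 lower of 27, against 24.1% higher and 22.7% lower over all tested genes. CESA5, a cellulose synthase subunit of primary walls, had 126 and 122 CPM in WT red, against 52.3 and 49.9 CPM in WT dark (log2 change 1.28 ± 0.04 (SE), adjusted p = 8.95e-58), and TUB1, a tubulin gene, had 68.05 and 70.6 CPM in WT red, against 151 and 154 CPM in WT dark (log2 change -1.14 ± 0.04 (SE), adjusted p = 1.15e-57). The endoglucanase genes GH9B1 and GH9B12 were lower too, GH9B1 with 12.6 and 12.7 CPM in WT red, against 72.8 and 72.4 CPM in WT dark and GH9B12 with 0.259 and 0.188 CPM in WT red, against 3.86 and 4.56 CPM in WT dark. HA2, a plasma membrane proton pump, had 1381 and 1393 CPM in WT red, against 2090.2 and 2093 CPM in WT dark.

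Aquaporins are the water channels of the plasma membrane and the vacuole. 14 of 21 listed aquaporins fell and 4 rose, against 22.7% lower and 24.1% higher over all tested genes. BETA-TIP, given above with a larger fall (log2 change -3.25), is not on this list, which is not the whole family. The list summed to 30193 and 30225 CPM in WT red and 35742 and 35708 CPM in WT dark. PIP2;4 had 304 and 305 CPM in WT red, against 719 and 711 CPM in WT dark (log2 change -1.23 ± 0.02 (SE), adjusted p = 1.78e-102), TIP2;3 had 759 and 760.4 CPM in WT red, against 1347 and 1354 CPM in WT dark, and TIP1;2 had 8233 and 8259 CPM in WT red, against 10429 and 10378 CPM in WT dark. PIP1;4 had 192 and 191 CPM in WT red, against 111 and 113 CPM in WT dark and PIP1;2 3915 and 3910.3 CPM in WT red, against 3021 and 3042 CPM in WT dark. The modest changes of TIP1;2 and PIP1;2 were not called with an assumed coefficient of variation of 0.1.

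The cuticle, the waxy cover of aerial organs, was a group that mostly rose. 26 of the 30 tested wax and cutin genes were higher and 2 lower, with 4 of 34 listed genes too low to test. The shares over all tested genes were 24.1% higher and 22.7% lower. LACS2, an enzyme of cutin synthesis, had 56.9 and 60.6 CPM in WT red, against 17.9 and 14.4 CPM in WT dark (log2 change 1.85 ± 0.07 (SE), adjusted p = 1.93e-52), and MYB16, a regulator of the cuticle, had 23.5 and 23.3 CPM in WT red, against 9.31 and 9.66 CPM in WT dark (log2 change 1.302 ± 0.10 (SE), adjusted p = 1.1e-23). CYP86A4, a fatty acid hydroxylase, had 9.48 and 10.4 CPM in WT red, against 17.3 and 18.4 CPM in WT dark. The sum of the list was 5661 and 5653 CPM in WT red and 3808 and 3795 CPM in WT dark. Glucosinolate genes, the mustard oil defence, gave 8 higher and 3 lower of 18 tested, or 61.1% called, against 46.8% over all genes. GTR1, a glucosinolate transporter, had 72.6 and 75.1 CPM in WT red, against 27.3 and 27.3 CPM in WT dark, and MYB28, regulator of aliphatic glucosinolates, had 3.57 and 3.45 CPM in WT red, against 1.202 and 1.07 CPM in WT dark.

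Few cell cycle and DNA replication genes were called at 1 h. 5 of 32 were higher and 1 lower, against 24.1% higher and 22.7% lower over all tested genes. The list median was 0.116 on the log2 scale, against 0.0022 over all tested genes. The higher count was 2 without WT dark replicate 2 or WT red replicate 2, and the lower count 2, 3 and 0 without WT dark replicate 1, WT dark replicate 2 and WT red replicate 2. CYCD3;2, a D-type cyclin, had 40.96 and 34.6 CPM in WT red, against 17.5 and 18.199 CPM in WT dark (log2 change 1.09 ± 0.08 (SE), adjusted p = 2.08e-26), and KRP2, an inhibitor of cyclin-dependent kinases, had 31.5 and 29.3 CPM in WT red, against 16.8 and 16.96 CPM in WT dark (log2 change 0.85 ± 0.08 (SE), adjusted p = 1.27e-17). Of the 10 growth-regulating factor genes and their cofactor 3 rose and 4 fell, with 2 falls when WT dark replicate 1 or either WT red replicate was left out. GRF7 is given above, and GRF3 had 20.2 and 21.4 CPM in WT red, against 13.3 and 12.2 CPM in WT dark and GRF5 1.24 and 1.253 CPM in WT red, against 0.351 and 0.483 CPM in WT dark. Splicing factors of the SR type and glycine-rich RNA-binding proteins fell more often than they rose, 10 against 2 of 22 (1 rise without WT dark replicate 2), all by less than 2-fold. GRP7, an RNA-binding protein tied to the clock, had 324 and 320.4 CPM in WT red, against 493 and 486 CPM in WT dark (log2 change -0.603 ± 0.02 (SE), adjusted p = 9.41e-50).

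Heat shock genes mostly rose. Of the 25 tested heat shock proteins and factors 20 rose and 3 fell, against 24.1% higher and 22.7% lower over all tested genes. HSP90.1, a cytosolic chaperone, had 69.9 and 67.9 CPM in WT red, against 13.2 and 12.7 CPM in WT dark (log2 change 2.41 ± 0.07 (SE), adjusted p = 1.48e-65), and HSP17.6A, a small heat shock protein, had 1.61 and 1.88 CPM in WT red, against 0.3005 and 0.215 CPM in WT dark. Chaperones of the endoplasmic reticulum gave 9 higher and 1 lower of 19, with 5 higher without WT red replicate 2 and 2 lower when either WT dark replicate was left out. Of these 1 was higher by at least 2-fold. That gene was TMS1, a J-domain co-chaperone, with 15.7 and 14.3 CPM in WT red, against 7.51 and 6.23 CPM in WT dark (log2 change 1.13 ± 0.13 (SE), adjusted p = 2e-14).

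Gains counted in CPM were led by other genes. PYK10, the beta-glucosidase of ER bodies, had 18231 and 18225 CPM in WT red, against 13642 and 13648 CPM in WT dark (log2 change 0.42 ± 0.0045 (SE), adjusted p = 2.15e-07), the largest gain outside the set-aside lists. NAI2, needed for ER bodies to form, had 2902 and 2855 CPM in WT red, against 1992 and 2034 CPM in WT dark, NSP1, a nitrile-specifier protein, 4255 and 4234 CPM in WT red, against 3059 and 3067 CPM in WT dark, and AT3G16420, the PYK10-binding protein 1, 5319 and 5346 CPM in WT red, against 4550.4 and 4557 CPM in WT dark. The changes of these 4 genes were below 1.5-fold, and their calls were lost with an assumed coefficient of variation of 0.1. COR413-PM1, a cold-regulated plasma membrane protein, had 1814 and 1809 CPM in WT red, against 388 and 399.6 CPM in WT dark (log2 change 2.202 ± 0.0091 (SE), adjusted p = 6.42e-170), and RCA, Rubisco activase, had 1227 and 1219.7 CPM in WT red, against 109 and 115 CPM in WT dark. The dehydrin gene COR47 had 2235 and 2249.9 CPM in WT red, against 1347 and 1356 CPM in WT dark. AT1G62660, a family 32 glycosyl hydrolase, had 1761 and 1777 CPM in WT red, against 884 and 902 CPM in WT dark. The largest losses were in TIP1;2, given above, and AT2G37130, a peroxidase, with 5528 and 5526 CPM in WT red, against 7483 and 7479 CPM in WT dark, also not called under that assumption. BGAL4, a beta-galactosidase, had 1486 and 1481 CPM in WT red, against 2462 and 2460.1 CPM in WT dark (log2 change -0.73 ± 0.0033 (SE), adjusted p = 5.13e-161), and EBP, an ethylene response factor, had 1242 and 1226 CPM in WT red, against 1883 and 1869 CPM in WT dark.

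At the other extreme were genes detected in one state only. 3 called genes had at least 1 CPM in both WT red libraries and 0 reads in both WT dark libraries, and no gene had the reverse pattern. SDR1, a short-chain dehydrogenase, had 7.51 and 8.71 CPM in WT red, at least 50.4-fold higher than a floor of 3 reads in a WT dark library (0.161 CPM). CIPK20, a calcium-regulated protein kinase, had 2.02 and 2.63 CPM, at least 14.4-fold higher on the same floor. AT3G28220, a TRAF-like protein, had 1.61 and 1.94 CPM, at least 11.02-fold higher.

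Transcription factor families were grouped by their annotated names and are read beside the 24.1% higher and 22.7% lower over all tested genes. The share called in either direction was 48.3% for WRKY, 47.8% for MYB, 50% for bZIP, 41.6% for NAC and 53.8% for ERF and DREB factors, against 46.8% over all genes. TCP factors, which control leaf growth, had 11 of 17 tested members higher and 2 lower, with TCP10 at 8.96 and 9.65 CPM in WT red, against 2.05 and 2.63 CPM in WT dark (log2 change 1.99 ± 0.18 (SE), adjusted p = 2.06e-19) and TCP15 at 16.3 and 16.2 CPM in WT red, against 27.1 and 30.6 CPM in WT dark. MYB factors had 30 of 90 higher and 13 lower. MYB41, linked to suberin and cuticle, had 10.2 and 9.65 CPM in WT red, against 1.903 and 1.99 CPM in WT dark, and MYB10 3.004 and 2.01 CPM in WT red, against 11.6 and 11.2 CPM in WT dark. ERF and DREB factors had 5 of 39 higher and 16 lower, bZIP factors 5 of 38 higher and 14 lower, and WRKY factors 10 of 60 higher and 19 lower. DREB1A, which encodes the cold-response factor CBF3, and DREB2A, a dehydration and heat factor, were among the few of their family that rose, DREB1A with 2.64 and 2.01 CPM in WT red, against 0.2504 and 0.591 CPM in WT dark and DREB2A with 38.2 and 42.2 CPM in WT red, against 13.9 and 13.05 CPM in WT dark. Lower calls became 4 for TCP factors without WT dark replicate 2 and 9 for ERF and DREB factors without WT red replicate 1. Counts of NAC factors were 21 higher and 11 lower of 77, with 10 higher without WT dark replicate 2 and 13 without WT red replicate 1. RD26, a NAC gene of dehydration, had 76.8 and 70.1 CPM in WT red, against 21.6 and 24.3 CPM in WT dark (log2 change 1.68 ± 0.06 (SE), adjusted p = 1.95e-54), and NAP, a NAC regulator of leaf senescence, had 7.92 and 8.34 CPM in WT red, against 16.1 and 21.1 CPM in WT dark.

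In the GATA family 4 were higher and 4 lower of 24, 33.3% called in all. CGA1, a promoter of chloroplast development and greening, had 6.99 and 6.83 CPM in WT red, against 0.2504 and 0.429 CPM in WT dark (log2 change 4.33 ± 0.30 (SE), adjusted p = 4.26e-27), while GATA4 had 17.2 and 16.98 CPM in WT red, against 79.3 and 75.4 CPM in WT dark (log2 change -2.18 ± 0.07 (SE), adjusted p = 1.98e-62) and GATA2 had 6.94 and 6.08 CPM in WT red, against 22.03 and 19.6 CPM in WT dark. GATA2 is known as a positive regulator of light responses that acts beside brassinosteroid signals. Basic helix-loop-helix factors had 23 of 93 higher and 30 lower, the higher share near the 24.1% over all genes. SPCH, which starts the stomatal lineage, had 4.04 and 4.7004 CPM in WT red, against 0.601 and 0.913 CPM in WT dark (log2 change 2.52 ± 0.28 (SE), adjusted p = 1.87e-14), and AT3G21330 had 3.26 and 4.32 CPM in WT red, against 24.2 and 24.9 CPM in WT dark. Of the homeobox genes 12 rose and 14 fell of 41, with HB52 at 7.25 and 5.89 CPM in WT red, against 44.7 and 44.6 CPM in WT dark (log2 change -2.75 ± 0.09 (SE), adjusted p = 2.99e-57) and HB-2, a shade-induced factor, at 15.1 and 15.7 CPM in WT red, against 51.6 and 52.7 CPM in WT dark.

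Enzyme families were counted in the same way and are read beside the same 24.1% higher and 22.7% lower. GDSL-type lipases, many of which work on the cuticle, had 27 of 50 higher and 5 lower, led by AT1G29660 with 89.02 and 85.7 CPM in WT red, against 10.8 and 10.6 CPM in WT dark (log2 change 3.03 ± 0.07 (SE), adjusted p = 6.52e-78). Class III peroxidases, which act in the wall, had 18 of 63 higher and 30 lower and summed to 12093 and 12087 CPM in WT red and 14671 and 14732 CPM in WT dark. Without WT dark replicate 2 the higher peroxidases were 11, and without WT red replicate 1 the lower lipases 3. UDP-dependent glycosyltransferases had 25 of 55 higher and 15 lower. DOGT1, which can glucosylate brassinosteroids, had 8.596 and 7.77 CPM in WT red, against 0.901 and 0.591 CPM in WT dark. Cytochrome P450 genes were near balance in direction, 62 higher and 55 lower of 165, but 70.9% were called, against 46.8% over all genes. Leucine-rich repeat receptor kinases had 34 higher and 42 lower of 152, and their 50% called was near that share. F-box genes gave 25 higher and 35 lower of 195, or 30.8% called.

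**Figure D4:**
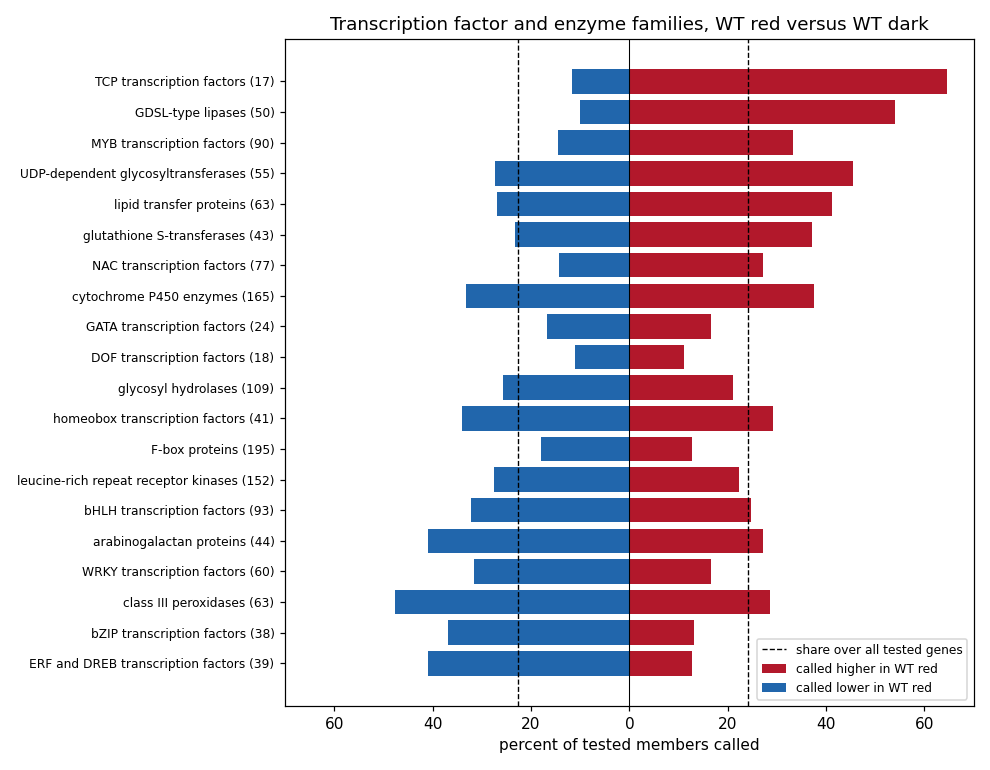
Bars give the percent of tested members of 20 families called higher (right) or lower (left) in WT red than in WT dark, and dashed lines the 24.1% and 22.7% over all tested genes. TCP factors and GDSL-type lipases reach furthest to the right of 0, and class III peroxidases, ERF and DREB factors and arabinogalactan proteins furthest to the left.

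The red-lit mutants place the wild-type levels. The targeted genes still gave reads: PHYB stood at 52.9 and 50.4 CPM in phyAB red and 62.3 and 64.3 CPM in phyB red, against 95.96 and 95.2 CPM in WT red, and PHYA at 124 and 123 CPM in phyAB red and 703 and 703 CPM in phyB red, against 463 and 470.5 CPM in WT red. Transcript levels therefore do not show by themselves that either protein is lost. All contrasts here share the WT red libraries, which also chose the named genes, so the values are given side by side as a description. Of the 242 named genes 203 were called between phyAB red and WT red, against 45.0% of all tested genes in that contrast, and 137 between phyB red and WT red, against 27.2% of all tested genes.

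Calvin cycle and photorespiration sums were above WT red in phyB and below it in phyAB. Summed Calvin cycle genes were 3795 and 3803 CPM in phyAB red, 9262 and 9255 CPM in phyB red, 7590.4 and 7546 CPM in WT red and 2289.9 and 2326 CPM in WT dark. Photorespiration genes were 1875 and 1885 CPM in phyAB red, 4903 and 4934 CPM in phyB red, 4136 and 4141 CPM in WT red and 1785 and 1805 CPM in WT dark, so that the phyAB level lay close to the dark level. RPT2 had 154 and 153 CPM in phyAB red and 579 and 575 CPM in phyB red against 451 and 448 CPM in WT red, and BBX25 7.41 and 9.78 CPM in phyAB red and 34.3 and 33.9 CPM in phyB red against 31.7 and 32.8 CPM in WT red. GRF7 had 23.03 and 23.5 CPM in phyAB red and 0.748 and 0.584 CPM in phyB red, with phyAB at the level of WT dark seedlings (23.1 and 20.1 CPM). HB52 showed the same order, with 43.6 and 42.8 CPM in phyAB red and 6.05 and 5.84 CPM in phyB red against 7.25 and 5.89 CPM in WT red and 44.7 and 44.6 CPM in WT dark.

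In other groups the phyAB level stood apart from WT dark, a contrast that was not tested. The dark and sugar starvation list summed to 4622 and 4615 CPM in phyAB red, 5741 and 5762 CPM in phyB red, 5317 and 5282 CPM in WT red and 9334 and 9283 CPM in WT dark. BCAT-2 had 43.5 and 39.9 CPM in phyAB red and 52.6 and 51.8 CPM in phyB red and CA2 339 and 345 CPM in phyAB red and 473 and 456 CPM in phyB red, all under the WT dark levels given above. Heat shock genes summed to 3317 and 3317 CPM in phyAB red, 2925 and 2933 CPM in phyB red, 3074 and 3069 CPM in WT red and 2497 and 2525 CPM in WT dark, and cuticle genes to 5703 and 5679.8 CPM in phyAB red, 5421 and 5433 CPM in phyB red, 5661 and 5653 CPM in WT red and 3808 and 3795 CPM in WT dark. RD29A had 359 and 361 CPM in phyAB red and 409 and 402 CPM in phyB red, and HSP90.1 60.7 and 61.8 CPM in phyAB red and 42.5 and 39.8 CPM in phyB red. Seed markers were higher in phyAB, at 77.7 and 76.6 CPM in phyAB red, 8.48 and 8.05 CPM in phyB red and 11.3 and 11.03 CPM in WT red. Their part in the phyAB levels was not tested. ICL, a gene of reserve breakdown, had 388 and 392 CPM in phyAB red and 91.2 and 93.3 CPM in phyB red, and here phyAB stood above the WT dark level of 277 and 269 CPM. Dark-grown mutants were not analysed here, so a light effect in a mutant and a difference present before light cannot be told apart.

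**Figure D5:**
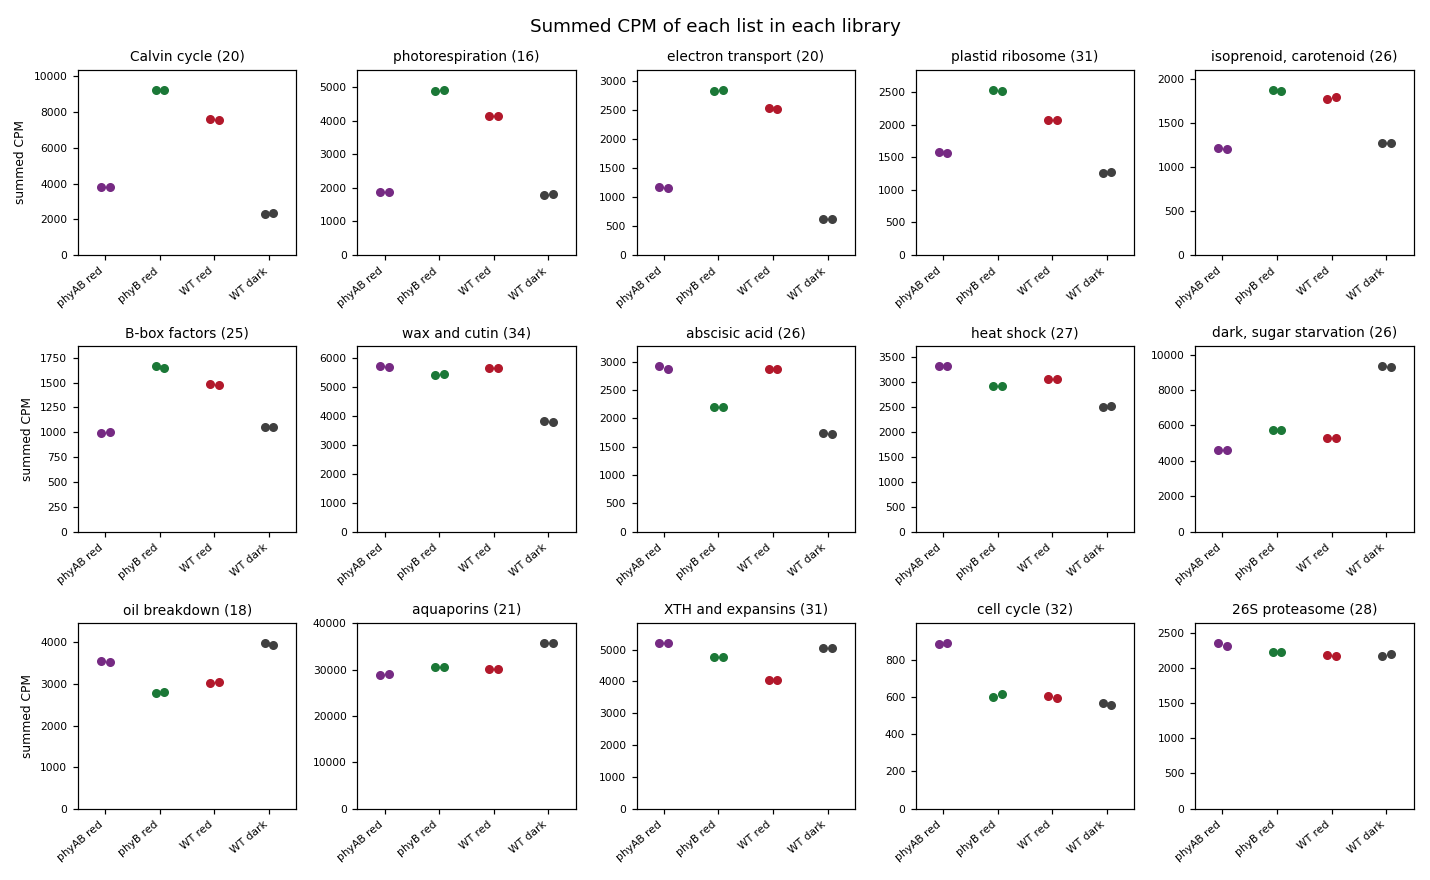
Summed CPM of the members of 15 gene lists (number of listed genes in brackets) in each library, y axes from 0, for phyAB red, phyB red, WT red and WT dark. Calvin cycle and electron transport sums are lowest in WT dark, while dark and sugar starvation sums are highest in WT dark and at 4622 and 4615 CPM in phyAB red.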

How the data were processed

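Seedlings of 4 groups, 2 libraries each, were profiled by sequencing of oligo(dT)-selected RNA, per the labels' protocols. The deposited files give, for 27416 gene models per library, raw read counts and RPKM values made by the authors. The genome build was TAIR10, per the submitters' processing notes. No source used here names an aligner, says how reads were counted or says whether strand was used, so overlapping and near-identical genes may share reads. RPKM values entered no test.

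Counts of all 8 libraries were fitted in edgeR 4.0.16 (R 4.3.3) with 1 coefficient per group and no covariate: TMM scaling, filterByExpr, robust quasi-likelihood F test, Benjamini-Hochberg adjustment over the 20716 genes tested. The standard error is the log2 change divided by the square root of F. On counts simulated from these libraries, known changes of 2-fold and 4-fold were recovered in the right direction. Gene names came from RefSeq's TAIR10.1 table, which names 26719 of the 27416 models.

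Replicates differed by 1.34 to 1.47 times counting noise, so none was taken for a repeat deposit of another. With 15926547 to 22116924 reads per library, 3 reads correspond to 0.135 to 0.188 CPM. Chloroplast-encoded transcripts made up 0.211% to 0.217% of wild-type reads.

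The comparison, the 34 lists and the named-gene rule were chosen with earlier results of these data known, and the 20 families were added after the files had been read. Named genes are up to 2 called rises and 2 called falls per list or family (at least 1 CPM), the 12 largest gains and losses in CPM, the 12 largest rises and falls in log2 change at 10 CPM or more, and called genes with 0 reads in both libraries of a group. PHYA, PHYB and the cell type markers are named beside this rule. Alternatives were other scalings, other filters, DESeq2 1.42.0, a fit of only the compared groups, an assumed coefficient of variation of 0.1, a replicate block and leaving out each library.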

Additional observations from a re-analysis of the deposited data

How the results depend on the processing

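The count of called genes, 9689, was within 1.5 times under all alternatives (7678 to 10153, DESeq2 giving the lowest) except an assumed coefficient of variation of 0.1 between biological replicates on summed libraries, which gave 3479 and put 68.3% of calls on the higher side, against 51.5%. Under that assumption 1454 genes were called higher and 528 lower by at least 2-fold. Named genes called between the mutants and WT red came to 130 in phyAB red and 42 in phyB red under it. No named gene changed direction under any alternative, and 195 of 242 were still called under the assumed coefficient, 231 of 242 with DESeq2 and 241 of 242 with upper-quartile scaling. Upper-quartile scaling moved the median log2 change of all genes by -0.0566 and gave 42.0% of calls higher. Of 116 list and family counts 87 moved past 1.5 times under the assumed coefficient and 14 with DESeq2. Leaving out each library gave 8111 to 8751 called genes, 1389 to 1461 at least 2-fold higher and 529 to 583 at least 2-fold lower, and 187 to 191 named genes in phyAB red and 122 to 129 in phyB red. Same-numbered libraries did not deviate together (correlations -0.0302 to 0.00967), and a replicate block gave 9699 called genes. Genes under about 1 CPM rest on few reads, so changes there may go undetected at this depth.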
